A study of Rattus norvegicus with 3 samples.

Results

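The 14-3-3 genes are the 6 genes of the tables whose symbols are Ywhab, Ywhae, Ywhag, Ywhah, Ywhaq and Ywhaz, out of 16629 genes and unnamed regions. They were chosen by name, as the family that binds the melatonin rhythm enzyme Aanat, and each had 1 RefSeq entry. Levels were read in 3 poly(A) RNA libraries from adult rats of the Sprague-Dawley strain, housed with 14 h of light to 10 h of darkness. The pineal night library was taken at zeitgeber time 19 (counted in hours from lights on), and the pineal day library at zeitgeber time 7. The mixed-tissue library, also from zeitgeber time 7, combined equal amounts of RNA from 15 tissues: nervous tissue (retina, cortex, spinal cord, hypothalamus, cerebellum, hindbrain and midbrain), pituitary and adrenal gland, and kidney, heart, lung, liver, skeletal muscle and small intestine. All animals were of the same strain and no group carried a treatment or transgene in the labels, which do not say how many glands or animals went into a library. Each group had 1 library, so no difference below has a replicate check and no p-value was computed. A value of the mixed tissues is that of the pool and does not tell which tissue it came from.

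The 14-3-3 proteins are small acidic adaptors that work as dimers and hold other proteins at a phosphorylated serine or threonine. In the pineal gland, noradrenaline released at night raises cAMP, protein kinase A phosphorylates Aanat, and the phosphorylated enzyme is held by 14-3-3 proteins, which shield it from dephosphorylation and breakdown and raise its affinity for serotonin. The structure of this complex was solved with sheep Aanat and the zeta protein. The family takes its gene symbols from tyrosine and tryptophan hydroxylases, which it also binds.

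All 6 genes were abundant in the gland at both times, and 0 of 6 were 2-fold apart between night and day, near the share of all genes compared (6.29%). The zeta gene Ywhaz had the widest ratio, 1.38-fold higher by night than by day. The eta gene Ywhah was the member furthest from the mixed tissues, 4.20-fold lower by night and 3.42-fold lower by day, where 40.1% and 37.2% of all genes compared were 2-fold apart in either direction. Over the same hours Aanat itself was 762 FPKM by night against 5.34 FPKM by day, a 143-fold difference. Levels are in FPKM as deposited by the authors (fragments counted per kilobase of a transcript and scaled to the mapped fragments of the library), so levels of different genes can be set side by side. Ratios marked log2 are those of FPKM + 1, and folds are plain ratios of FPKM.

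Ywhaz, which encodes the zeta protein, was at 297 FPKM by night, 215 FPKM by day and 261 FPKM in the mixed tissues (chr7:72283824-72306126, rn4). By night it was thus the highest of the 3 values and by day the lowest. Ywhae, the gene of the epsilon protein, was at 287, 293 and 316 FPKM in the night, day and mixed-tissue libraries (chr10:63072127-63109833). It was the steadiest member, with a range of 0.13 on the log2 scale over the 3 libraries.

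Ywhag, which encodes the gamma protein, a form abundant in neurons, was at 113 FPKM by night, 119.7 by day and 156 in the mixed tissues (chr12:21859803-21888050). Ywhab, the beta gene, was at 92.9, 98.0 and 121 FPKM in the same order of libraries (chr3:154926024-154948349). These genes kept the same order in all 3 libraries, and both were highest in the mixed tissues.

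Ywhaq, the theta gene (its protein is also called tau), was at 69.6 FPKM by night, 81.9 by day and 65.5 in the mixed tissues (chr6:41945768-41976123). Ywhah, the eta gene, was at 64.2 FPKM by night, 79.0 by day and 269.9 in the mixed tissues (chr14:83448394-83457778). In the gland these were the lowest members, within 1.08-fold of each other by night and 1.04-fold by day. In the mixed tissues Ywhah was second of the 6 and Ywhaq last.

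**Figure D1:**
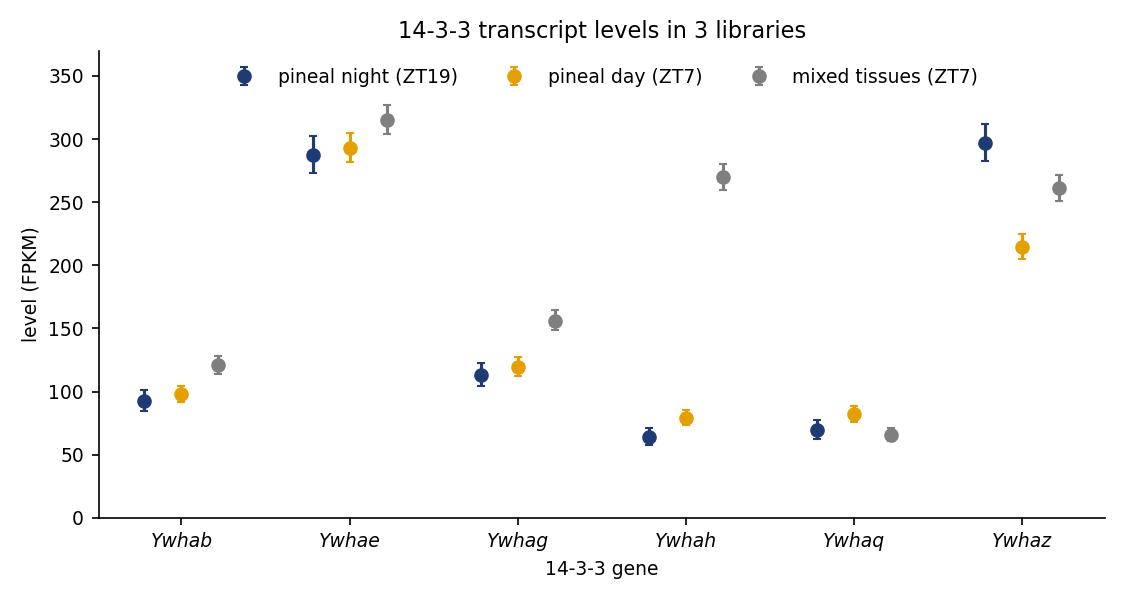
Level in FPKM of each 14-3-3 gene in the pineal night, pineal day and mixed-tissue library, 1 library each. Bars are 95% Poisson bounds for a transcript of 1 kb and cover counting error alone. Ywhah stands at 64.2 and 79.0 in the gland against 269.9 in the mixed tissues, and Ywhaz at 297 by night against 215 by day.

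Fragment counts were not used here. From the smallest values of short receptor genes, 1 FPKM was estimated to stand for 5.29 fragments per kb by night, 8.73 by day and 9.72 in the mixed tissues, so the night library was the shallowest. With 95% counting bounds for a transcript of 1 kb, the members fell into steps, some of them narrow. By night Ywhaz and Ywhae overlapped, then came Ywhag, then Ywhab, then Ywhaq and Ywhah, which overlapped. By day Ywhae lay above Ywhaz by 1.37-fold, without overlap, and only Ywhaq and Ywhah overlapped. In the mixed tissues Ywhae led, Ywhah and Ywhaz overlapped, and Ywhag, Ywhab and Ywhaq followed one by one. The step from Ywhag to Ywhab by night was narrow, with a lower bound of 104.3 FPKM against an upper bound of 101.5. These bounds hold no spread between animals and no error of the depth estimate, transcript length or read mapping. Among all genes and regions the members ranked from 63 to 601 by night, 59 to 406 by day and 49 to 573 in the mixed tissues.

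Several members have named pseudogenes in RefSeq (assembly GRCr8): 5 for Ywhaq, 2 for Ywhaz, and 1 each for Ywhag and Ywhah. The sources used here do not give how reads shared with such copies were counted, so the levels of these 4 genes are uncertain to that extent. No pseudogene is named after Ywhab or Ywhae. Sfn, the sigma gene, is not analysed here. An entry that was picked after its values were seen, LOC298795, described as similar to the sigma protein, was listed at 0 in all 3 libraries.

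A cAMP response element (CRE) is the motif through which cAMP-activated factors act on many night genes of the gland. Ywhah was the member that differed most between gland and other tissues. The promoters of Ywhab and Ywhaq, which held no CRE letters, are not printed. Promoter sequences are shown for the members that held CRE letters (Ywhah, Ywhag and Ywhae) and for Aanat. Each is the 250 bases before the RefSeq gene start (GRCr8), and capitals mark CRE letters: TGACGTCA (the full CRE, which reads the same on both strands), TTACGTCA, or the core TGACG, each searched on both strands. Ywhah lies at chr14:81930203-81930452 (minus strand), Ywhag at chr12:26380969-26381218 (plus), Ywhae at chr10:61082684-61082933 (plus) and Aanat at chr10:102326073-102326322 (plus).
Ywhah: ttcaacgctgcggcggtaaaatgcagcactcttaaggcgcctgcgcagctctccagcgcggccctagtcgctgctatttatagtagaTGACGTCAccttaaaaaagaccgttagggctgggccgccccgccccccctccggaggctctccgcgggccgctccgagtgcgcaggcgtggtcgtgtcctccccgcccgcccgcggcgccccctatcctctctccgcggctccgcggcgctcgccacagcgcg
Ywhag: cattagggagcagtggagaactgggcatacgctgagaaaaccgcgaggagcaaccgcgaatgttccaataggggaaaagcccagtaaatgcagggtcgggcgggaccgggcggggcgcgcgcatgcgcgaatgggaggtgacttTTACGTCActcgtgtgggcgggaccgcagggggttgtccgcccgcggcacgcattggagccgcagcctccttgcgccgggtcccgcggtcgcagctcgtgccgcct
Ywhae: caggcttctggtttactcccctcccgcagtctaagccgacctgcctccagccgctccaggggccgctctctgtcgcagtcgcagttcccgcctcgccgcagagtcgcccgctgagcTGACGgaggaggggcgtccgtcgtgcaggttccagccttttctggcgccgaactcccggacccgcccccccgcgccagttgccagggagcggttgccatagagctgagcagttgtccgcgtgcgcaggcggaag
Aanat: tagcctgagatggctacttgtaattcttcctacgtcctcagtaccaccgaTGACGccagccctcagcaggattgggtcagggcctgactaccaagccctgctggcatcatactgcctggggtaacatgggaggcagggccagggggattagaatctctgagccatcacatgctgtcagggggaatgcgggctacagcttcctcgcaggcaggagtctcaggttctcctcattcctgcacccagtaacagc

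The full CRE was found in 1 of the 5 member promoters matched in the RefSeq table (all members but Ywhaz), that of Ywhah, 163 to 156 bases before the start. In all, 1.59% of 33469 RefSeq promoter windows of this length held it. Ywhag had TTACGTCA, 106 to 99 bases before the start, which 0.75% of the windows held. No other variant of the full CRE that differs by a single base was searched. That percentage is thus not the share of windows with any such variant, and it does not tell how rare the match is. The printed Aanat window, for example, reads TGACGCCA around its core, which also differs from the full CRE by a single base. The core TGACG, which lies within both longer motifs on one strand or the other, was in 3 of the 5 (Ywhae, Ywhag and Ywhah) and in Aanat, against 18.2% of all windows. The GC box GGGCGG was in 5 of 5 member promoters and in 30.5% of windows, and the E-box CACGTG in 0 of 5 and in 5.59%. G and C made up 65.2% to 69.2% of the 5 member windows. The windows they are set against were not matched for this, so the motif shares do not show an excess in the family. A match describes these letters and is not a measured binding site. Of the genes that hold CRE letters, Ywhah was at 64.2 FPKM by night against 79.0 by day, and Ywhag at 113 and 119.7. Ywhae was at 287 and 293, and Aanat at 762 and 5.34. Of the members without CRE letters, Ywhab was at 92.9 and 98.0 and Ywhaq at 69.6 and 81.9. Ywhaz had no window to search. A link between the letters and the levels was not tested.

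Between night and day, 0 of 6 members were at least 2-fold apart on the FPKM + 1 scale, where 6.29% of the 9826 genes and regions compared were (those with FPKM of at least 1 in either library), 4.18% on the higher side by night and 2.11% on the lower. Their log2 ratios ran from -0.29 to 0.47 with a median of -0.08, against a median of -0.11 over all genes compared. With so few members, a count of 0 lies near that background. Ywhaz was on the higher side by night with a log2 ratio of 0.47, and the counting bounds of its 1.38-fold ratio were 1.29 to 1.48 for a transcript of 1 kb. A ratio as high or higher was seen for 10.6% of the genes compared, and for 20.7% of those with FPKM of at least 50 in either library. Ywhah (log2 -0.29) and Ywhaq (log2 -0.23) were lower by night, with ratios of 0.81 and 0.85 and upper counting bounds of 0.93 and 0.96. With the libraries centred on their median gene, these log2 ratios shrank to -0.20 and -0.13, while that of Ywhaz rose to 0.57. With the libraries rescaled without their 20 highest genes, Ywhaz, Ywhah and Ywhaq were at 0.43, -0.33 and -0.27. The bounds hold for the ratios as deposited and were not computed for the centred or rescaled ones. Ywhag (-0.08), Ywhab (-0.08) and Ywhae (-0.03) had counting bounds that included a ratio of 1, and their sign turned positive when the libraries were centred on their median gene.

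The 6 genes together were at 924 FPKM by night against 886 FPKM by day, 0.43% and 0.42% of all FPKM, a ratio of 1.04. Ywhaz made up 32.1% of the sum by night and 24.2% by day, while Ywhae made up 31.1% and 33.1%. Ywhag took 12.2% by night and 13.5% by day, Ywhab 10.1% and 11.1%, Ywhaq 7.53% and 9.24%, and Ywhah 6.95% and 8.91%. Ywhaz thus took a larger share by night. Without Ywhaz, the other 5 summed to 627 FPKM by night against 672 FPKM by day, a ratio of 0.93 (log2 -0.10). The median log2 ratio of genes with FPKM of at least 1 in both libraries was also -0.10, so the sum of these 5 differed as the median gene did.

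**Figure D2:**
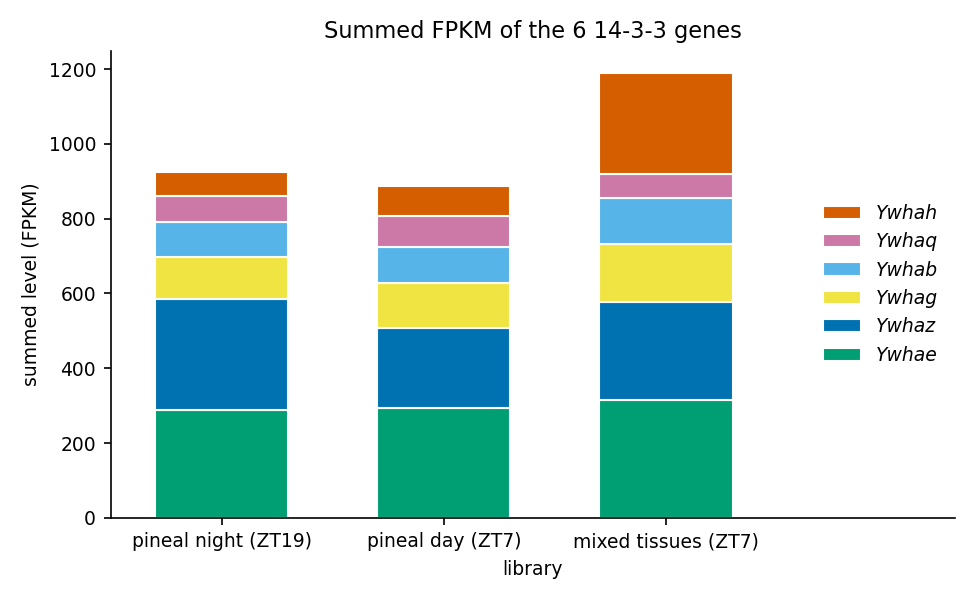
Summed FPKM of the 6 14-3-3 genes in the pineal night, pineal day and mixed-tissue library, 1 library each, with a coloured segment for each gene. The sums are 924, 886 and 1189.5, and the top segment, Ywhah, is tallest in the mixed tissues.

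Set beside Aanat, the family sum was 1.21 times the Aanat level by night and 166 times by day, both in FPKM. Ywhaz alone was at 0.39 of the Aanat level by night and 40.2 times it by day. These are ratios of transcripts, and protein was not measured. In the mixed tissues Aanat, at 0.13 FPKM, lay under the value of 3 fragments on 1 kb (0.31 FPKM), so no ratio is given there.

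Markers of other cell types in the pineal libraries are given as measured values, since a bulk library cannot tell fewer cells of a type from less RNA per cell. The 5 astrocyte markers found summed to 88.1 FPKM by night against 119 by day, the 5 oligodendrocyte markers to 16.1 and 30.0, and the 6 fibroblast and meningeal markers to 180.5 and 242. On the FPKM + 1 scale, 1 compared marker of these lists (the oligodendrocyte gene Cnp, 7.93 and 18.2 FPKM) was 2-fold apart, and in plain FPKM also Aqp4 of the astrocyte list (4.52 and 9.13). Smaller differences were seen for other lists: the 5 microglia markers summed to 42.6 by night and 47.1 by day, the 4 endothelial markers found to 17.5 and 20.9, and the 3 erythroid markers to 357 and 386. The neuron markers are given further below. The 11 pinealocyte markers, which include Aanat, summed to 9758 FPKM by night against 7426 by day. The part of such differences in the Ywhaz ratio was not tested.

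Against the mixed tissues at the same hour, 1 of 6 members was at least 2-fold apart by day, Ywhah, where 37.2% of 11934 genes and regions were, with 8.32% higher in the gland and 28.9% lower. By night it was again 1 of 6, Ywhah, where 40.1% of 11951 genes and regions were 2-fold apart, with 8.99% higher and 31.2% lower. Both comparisons share the mixed-tissue library, and the night comparison sets different hours against each other. Ywhah had a log2 ratio of -2.05 by night and -1.76 by day, and the counting bounds of the fold were 3.76 to 4.73 by night and 3.14 to 3.72 by day. A ratio as low or lower was seen for 13.7% of the genes compared by night and 15.8% by day, so its distance from the mixed tissues was within the range of many genes.

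The other 5 members lay within 2-fold of the mixed-tissue level. Ywhag was at log2 -0.46 by night and -0.38 by day against the mixed tissues, Ywhab at -0.38 and -0.30, and Ywhae at -0.13 and -0.11. Ywhaz was at 0.18 by night and -0.28 by day, on either side of the pool. Ywhaq was at 0.09 by night and 0.32 by day, and by day it was the member above the pool, 1.25-fold (counting bounds 1.12 to 1.39). Ywhag was 1.38-fold lower by night (1.26 to 1.52) and 1.31-fold lower by day (1.21 to 1.41). Of these 5, only Ywhaq by night had counting bounds that included a ratio of 1 (0.93 to 1.21). The sign for Ywhae turned positive in both comparisons when the libraries were rescaled without their 20 highest genes, and by night also with centring. Over the 6 members the median log2 ratio was -0.26 by night and -0.29 by day, beside -0.36 and -0.27 over all genes compared.

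**Figure D3:**
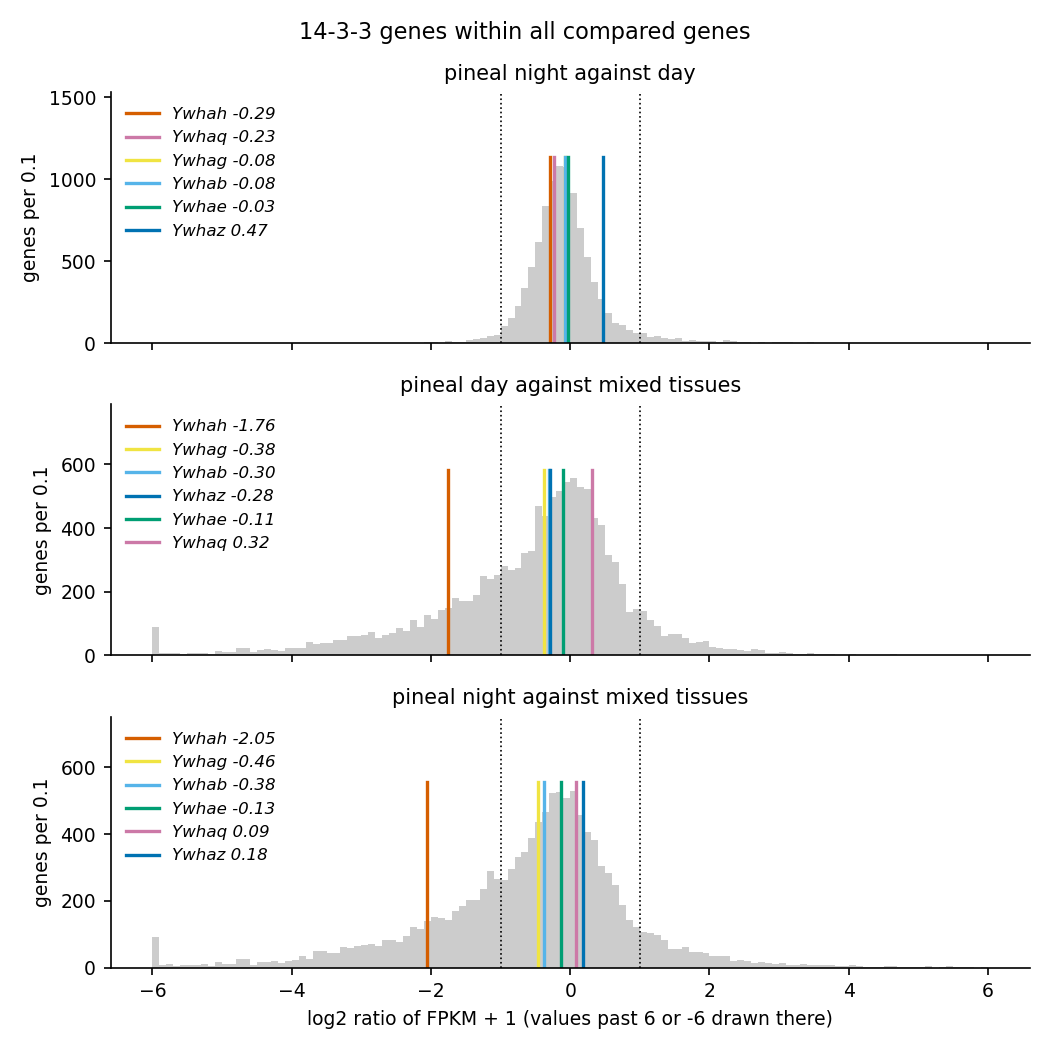
Grey bars count genes by log2 ratio of FPKM + 1 (steps of 0.1) for pineal night against day, day against mixed tissues and night against mixed tissues; coloured lines mark the 6 14-3-3 genes and dotted lines a 2-fold difference. Ywhaz lies at 0.47 in the first panel, and Ywhah at -1.76 and -2.05 in the others, the only line outside the dotted ones.

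Summed over the family, the gland held 924 FPKM by night and, by day, 886 FPKM, against 1189.5 FPKM in the mixed tissues, ratios of 0.78 and 0.74. Ywhah took 6.95% of the sum by night and 8.91% by day, against 22.7% in the mixed tissues. It accounted for 77.6% of the gap in summed FPKM by night and 62.9% by day. Without it, the other 5 summed to 860.1 FPKM by night and, by day, 807 FPKM, against 919.6 FPKM in the mixed tissues. The gap, the part of Ywhah in it and these sums depend on scale. Total FPKM was 214223 by night, 209861 by day and 246774 in the mixed tissues. As a percentage of all FPKM, the other 5 were at 0.402 by night and 0.385 by day, above 0.373 in the mixed tissues. The full family was at 0.43 and 0.42, against 0.48.

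Markers of most other cell types and organs in the pool, nervous or not, were low in the gland along with Ywhah. Of 6 neuron markers, 5 were at least 2-fold lower in the gland at both times (Rbfox3, listed as Hrnbp3, Tubb3, Nefl, Nefm and Camk2a), and together they were at 0.76 FPKM by night and, by day, 1.45 FPKM, against 469 FPKM in the mixed tissues. Camk2a and Rbfox3 were listed at 0 by night. The sixth, Slc17a7, a vesicular glutamate transporter, stood at 498.8 FPKM by night and, by day, at 582 FPKM, against 90.7 in the pool, which brings the summed level of the 6 to 499.5, 583 and 560.0 FPKM. All 5 oligodendrocyte markers were at least 2-fold lower, with sums of 16.1 FPKM by night and 30.0 by day, against 4617 in the pool. Of 5 astrocyte markers 4 were, all but Slc1a2, and the 5 summed to 88.1 and 119, against 689.7. All 10 markers of the pooled organs were lower, at 1.59 FPKM by night and 1.352 by day, against 13602, with Alb, Gh1, Prl, Scgb1a1, Umod and Fabp2 listed at 0 in both pineal libraries. All 3 erythroid markers were lower, at 357 and 386 against 1298, and so were endothelial markers, 4 of 4 by night and 3 of 4 by day, at 17.5 and 20.9 against 84.6. Of 6 fibroblast and meningeal markers 2 were lower by night and 1 by day, and of 5 microglia markers 1 by night and 0 by day. These counts are on the FPKM + 1 scale. In plain FPKM the microglia genes Aif1 by day (8.19 against 16.96) and Itgam by night (0.64 against 1.68) were also more than 2-fold lower. The part of all these markers in the Ywhah difference was not tested. The pineal label fits its defining genes: by night and by day alike, 10 of 11 pinealocyte markers exceeded the pool by 2-fold or more. The exception was Sag, at 337 FPKM by night and 158 by day, against 311 in the pool.

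The genes nearest to Ywhah in profile, among 2552 genes with a mean of at least 20 FPKM, were Gm2a, an activator of ganglioside breakdown (14.0 FPKM by night, 17.7 by day, 61.6 in the mixed tissues), Glud1, glutamate dehydrogenase (24.7, 30.8 and 109), and Pnmal2 (9.93, 12.8 and 44.4). Nearest to the family sum were Syn2, a synaptic vesicle protein (26.1, 25.0 and 33.7), Dpt, a matrix protein (41.0, 39.2 and 53.3), and Ctsa, a lysosomal protease (48.0, 45.5 and 62.1). Likeness was the Euclidean distance of centred log2(FPKM + 1) over 3 libraries, and many genes lie close to any profile of so few points.

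Genes whose proteins, or close relatives of them, are known to bind 14-3-3 proteins were compared by night and day as well. The lists were written with earlier results of these data known. Of 68 listed genes, 54 were found and 47 compared: by night 4 passed 2-fold on the higher side and 3 on the lower, with 40 in between, that is 14.9% apart beside the 6.29% of all genes. Their median log2 ratio was -0.16, beside -0.11 for all genes. Among the biogenic amine enzymes, Aanat was the member apart (log2 6.91), while Tph1, tryptophan hydroxylase of the gland, was at 4245 FPKM by night against 4665 by day. Tph2, its neuronal form (0.22 and 0.07), and Th, tyrosine hydroxylase (0 and 0.05), were below the level compared.

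Among 12 kinases compared, Sik1, a salt-inducible kinase, was at 97.8 FPKM by night against 1.72 by day, 56.8-fold apart. Araf, a kinase of the MAP kinase path, was at 49.6 by night against 49.4 by day. Mark3, a polarity kinase, was at 26.7 and 24.8, and Ulk1, which starts autophagy, at 15.8 and 17.2. Of 10 compared genes of transcription control, 0 passed 2-fold on the higher side by night and 2 on the lower.

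Hdac5, a histone deacetylase kept out of the nucleus by 14-3-3 binding, was at 20.6 FPKM by night against 51.6 by day (2.50-fold lower). Hdac9, listed as LOC687001 and named after its values were seen, was at 0.60 and 3.16. Crtc1 (listed as Mect1) and Crtc2, coactivators of CREB, were at 16.9 by night against 18.97 by day and at 11.1 and 14.1. Yap1, a growth control coactivator, was at 7.35 and 9.11, and the forkhead factor Foxo3 at 6.71 and 8.77.

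Among 6 compared genes of survival and the cell cycle, Cdc25a, a phosphatase that drives the cell cycle, was at 18.8 FPKM by night against 60.9 by day (3.24-fold lower). Cdkn1b, an inhibitor of cyclin-dependent kinases, was at 57.2 and 27.8 (2.06-fold higher). Bad, a cell death protein that 14-3-3 binding holds in the cytosol, was at 14.5 and 19.5. Of 10 metabolic and signalling genes compared, Irs2, an insulin receptor substrate, was at 129.8 FPKM by night against 2.30 by day, 56.5-fold apart, while Irs1, its relative, was at 67.0 and 66.8. Ddit4, which dampens mTOR signalling, was at 28.4 and 13.8, a log2 ratio of 0.995 on the FPKM + 1 scale, just inside 2-fold. Rgs7, a brake on G protein signalling, was at 36.2 and 50.9, and Pfkfb2, a regulator of glycolysis, at 26.7 and 34.8.

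All 7 compared genes of the cytoskeleton and channels were within 2-fold, led in level by Kif1b, a kinesin motor (89.4 FPKM by night against 63.3 by day), and Hspb6, a small heat shock protein (58.4 and 78.8). The enzymes that put on or take off the phosphate that 14-3-3 proteins read were compared too. Of 17 genes of protein kinase A, Akt and phosphatases, 0 were 2-fold apart, near the 6.29% of all genes, with a median log2 ratio of -0.11. Prkaca, the main catalytic subunit of protein kinase A, was at 84.8 FPKM by night against 69.6 by day, and Ppp1cc, a catalytic subunit of protein phosphatase 1, at 278 and 338. Ppp1cc was the highest of the 17, and in the mixed tissues it was at 89.5 FPKM.

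**Figure D4:**
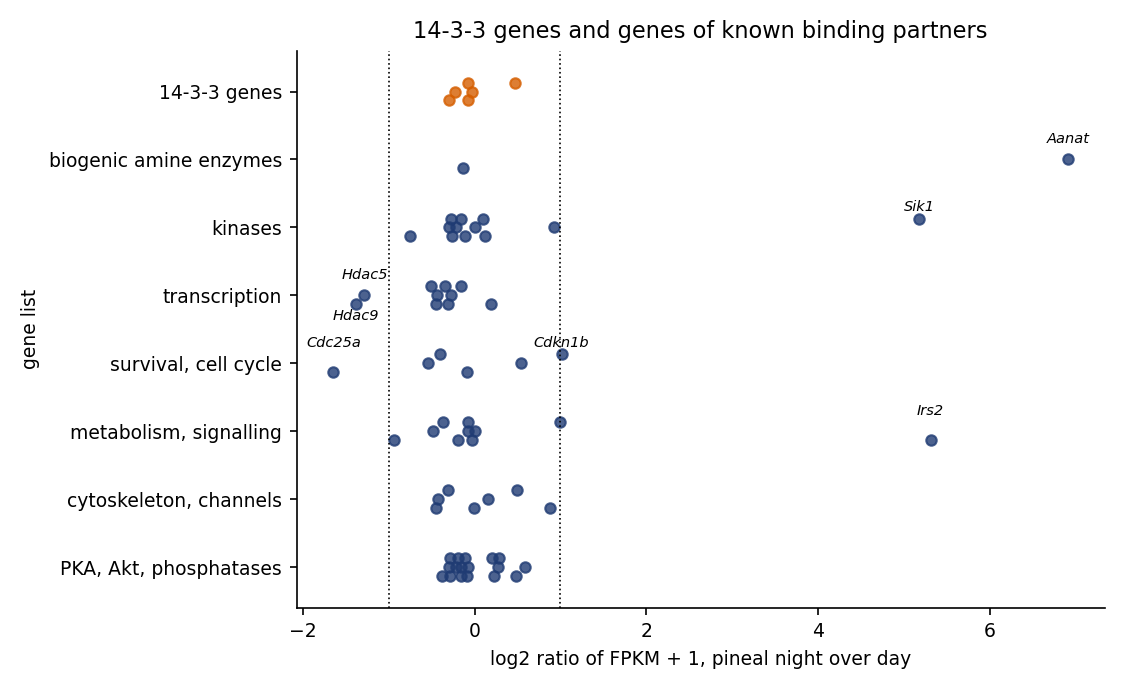
Log2 ratio of FPKM + 1 for pineal night over day, 1 library each, with a point for each gene: the 14-3-3 genes at the top, then the lists of binding partners and the phosphorylation enzymes. Dotted lines mark a 2-fold difference. The 14-3-3 genes lie between -0.29 and 0.47, while Aanat (6.91), Irs2 (5.31) and Sik1 (5.18) lie far to the right.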

How the data were processed

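The deposited tables give FPKM, per the file headers, computed by the authors. Per the labels' protocols, poly(A) RNA was selected from 10 µg of total RNA, fragmented, primed at random, amplified over 15 cycles of PCR, and sequenced as paired reads of 51 bases, 1 lane a library. Per the submitters' processing notes, TopHat 1.3.1, Cufflinks 1.2.0 and build rn4 were used. The sources used here give no options, filters or handling of reads with several map positions. PCR duplicates, if kept, would make counting bounds too narrow, and FPKM moves with the few most abundant transcripts of a library.

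The series table held 17089 entries, identical to the files of single samples. Entries of a symbol were summed, which left 16629 genes and regions. Ratios use a pseudocount of 1, which understates differences of low genes, and genes with FPKM of at least 1 in either library. Called means at least 2-fold apart. Depth was estimated from 1341 receptor gene models spanning 800 to 1100 bp: the median of the lowest values above 0, times length, is taken as 1 fragment. The night estimate rests on 4 models, the day estimate on 22 and that of the mixed tissues on 23. Bounds are exact 95% Poisson or Clopper-Pearson bounds. Members and lists were chosen with earlier results of these data known. Named genes are all members, Aanat, the listed partners at least 2-fold apart with FPKM of at least 5, up to 4 further genes a list of highest FPKM, and the 3 nearest profiles. Older symbols were matched by gene ID through RefSeq. Steps were tested on simulated data. Python 3.11.15, pandas 2.3.3, numpy 2.4.6, scipy 1.17.1 and matplotlib 3.10.9 were used.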

Additional observations from a re-analysis of the deposited data

How the results depend on the processing

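The count of members at least 2-fold apart was 0 (night against day), 1 and 1 (day and night against mixed tissues) under every alternative run: pseudocounts of 0.1 and 5, centring on the median log2 ratio of genes with FPKM of at least 1 in both libraries (-0.10, -0.07 and -0.14 for night against day, day against mixed and night against mixed), rescaling without the 20 highest genes, and the highest entry of a symbol. The summed family log2 ratio for night against day was 0.06 as deposited and 0.16 centred. For day against mixed tissues it was -0.42, and -0.36 centred or -0.21 rescaled, and for night against mixed tissues -0.36, and -0.23 or -0.18. Of 18 member ratios, centring turned the sign of 4 and rescaling of 2, none of them past 2-fold. The percentage of all genes 2-fold apart by night and day was 6.29, but 3.72 with no filter, 10.7 with a pseudocount of 0.1, 3.002 with 5, and 13.3 for genes at FPKM of at least 50, a filter chosen after seeing the data. With a pseudocount of 5 it was 19.8 for day and 21.7 for night against mixed tissues. No paired analysis was possible because each group has 1 library. Depth limits precision most by night.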
